A study of Hydra vulgaris with 32 samples.

Results

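Among the loci measured in Hydra polyps treated with hydroxyurea, 17 had a higher signal than controls 4 days after the beginning of treatment. On day 11 their mean was at most 1.3 times that of controls, so a smaller excess could remain. They were taken from 14792 loci of the normalized table deposited by the authors, in which the signals of all sequences of a locus were summed. A locus was a member when its mean signal in hydroxyurea day 4 libraries was at least 130 and at least 1.8 times the mean of control day 4, when every hydroxyurea day 4 library lay above every control day 4 library, and when its hydroxyurea day 11 mean was at most 1.3 times that of control day 11. The first limit left 9802 loci, the second 369, the third 348 and the last 17. The loci were thus chosen by their measured values on days 4 and 11, which are given as a description, while days 5 and 7, heat shock and colchicine took no part in the choice except through the control day 11 libraries. The loci carry only the authors' locus numbers: 0 of the identifiers matched a reference table of 28925 Hydra genes, so no gene name, protein or cell type marker could be assigned, and the cell types in the samples were not checked.

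Hydra keeps its body column in constant renewal. Epithelial stem cells of the ectoderm and endoderm divide slowly, whereas interstitial stem cells and their progeny, which give rise to nerve cells, stinging cells, gland cells and germ cells, divide faster. Hydroxyurea inhibits the enzyme that supplies deoxynucleotides and so stops DNA synthesis, which kills cells that are replicating. Colchicine blocks the assembly of microtubules, and the mutant strain Sf-1 loses its interstitial cells when it is kept warm.

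The series held 32 polyA RNA libraries of 10 groups, all from the central body column of Sf-1 polyps that were not fed during the experiment. Hydroxyurea at 10 mM was given in 3 periods of 24 h with pauses of 12 h, and treated polyps were sampled 4, 5, 7 and 11 days after its beginning, with 3 libraries for each day. Heat shock polyps were held at 28 °C for 62 h and gave 4 libraries, and polyps given 0.4% colchicine for 8 h gave 3 libraries, all on day 9 of the treatment and after 11 days of starvation. Untreated controls of days 4, 5 and 7 had 3 libraries each, and those of day 11 had 4. On this schedule the end of the last hydroxyurea period and the day 4 samples nearly coincided, so the presence of the drug and the loss of cells cannot be told apart there. The labels do not say whether replicates A to D came from separate cultures, and p-values then measure only the spread between these libraries, which may be technical.

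Library totals were 23.6 to 36.6 M counts in 30 libraries, against 15.2 M in colchicine B and 13.1 M in colchicine C. A single locus, loc01654, took 0.486% to 17.3% of the counts of a library. Colchicine C held less than 1 part in 3 of the signal of either other colchicine library at 6 of the 17 loci, and heat shock A or B stood apart at several loci, as described with the values. Where leaving out any of these libraries changed a call, the result is given with and without it.

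On day 4 the members had a hydroxyurea mean of 1.81 to 9.35 times the control mean, with a median of 1.98. The strongest was loc07794, whose signal was 267, 164 and 158 in hydroxyurea libraries A, B and C and 30.7, 16.6 and 15.6 in control libraries A, B and C. It was followed by loc11856 with 179, 187 and 190.0 in hydroxyurea libraries, against 64.5, 60.1 and 91.0 in control libraries. Most of the other ratios were modest: 15 loci lay between 1.81 and 2.32. The most abundant member was loc18029, with a mean of 1904 ± 501 in hydroxyurea libraries and 898 ± 221 in control libraries (SD, n = 3 each). The weakest, loc10623, averaged 134 ± 7.27 in hydroxyurea libraries and 67.3 ± 18.5 in control libraries (SD, n = 3 each). In bulk samples a change in the number of cells of a type and a change in RNA per cell cannot be told apart, and this holds for every value here.

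**Figure D1:**
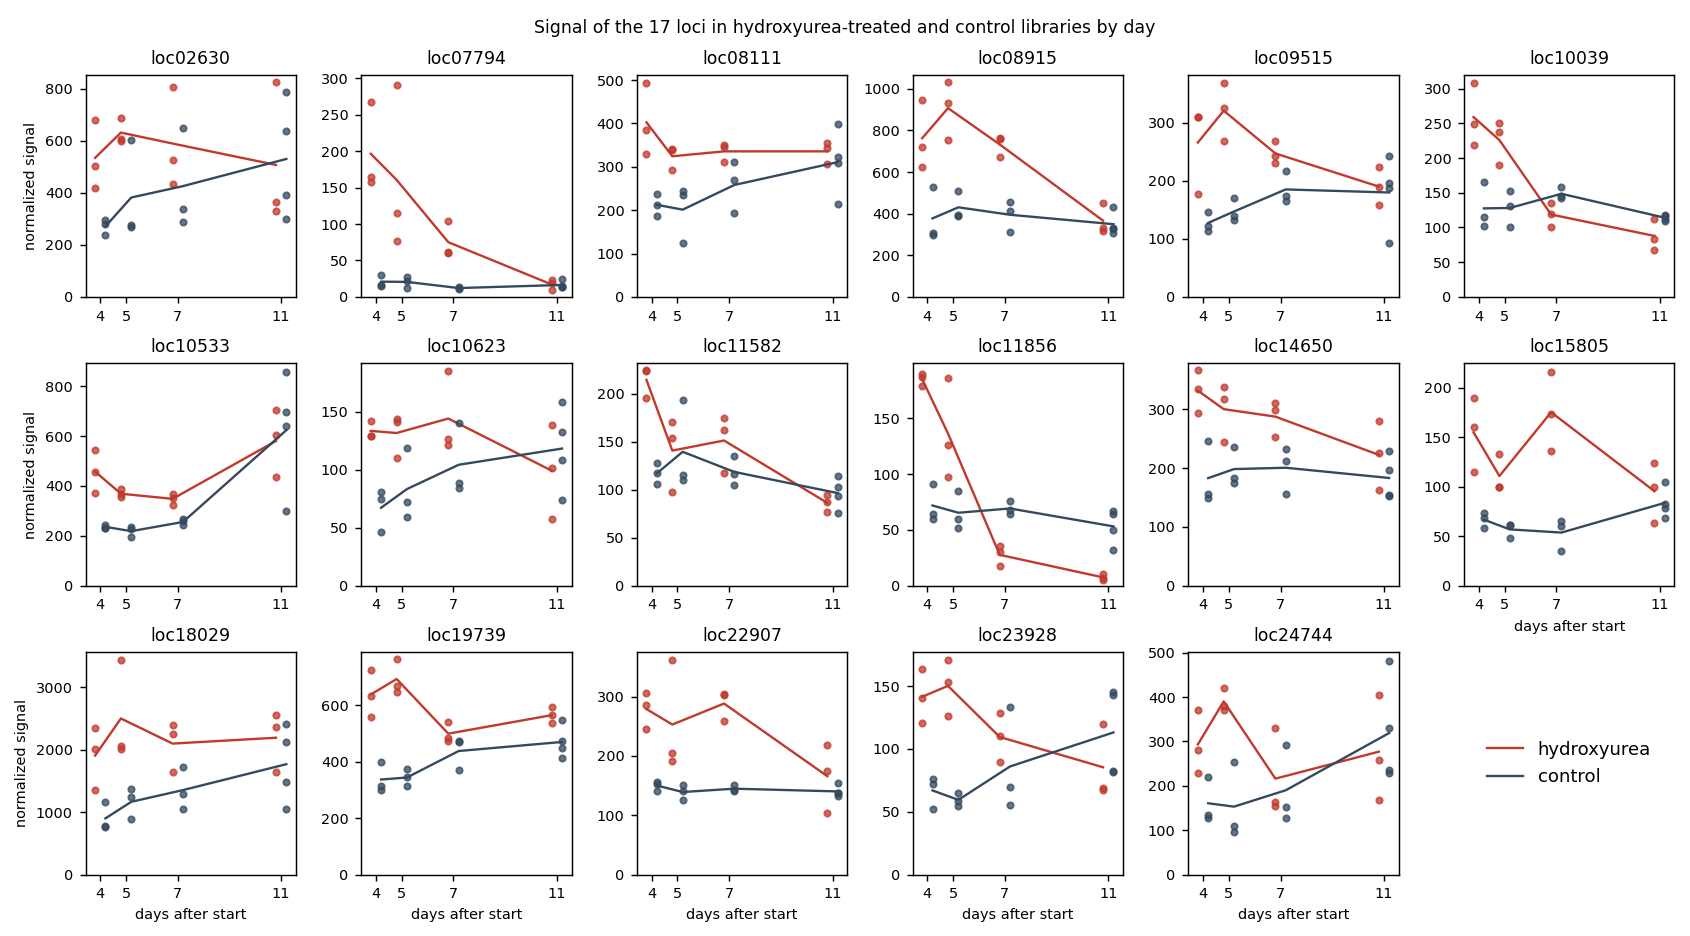
Normalized signal of each of the 17 loci (y axis, linear, from 0) against days after the beginning of treatment (x axis), with hydroxyurea in red and control in blue. Points are libraries and lines join group means; the red lines of loc07794 and loc11856 slope down to day 11, while at loc10533 the blue line ends at the level of the red one.

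Values close to the limits show how sharp the choice was. Just inside the day 4 ratio limit lay loc14650 at 1.81 and loc24744 at 1.83, and just outside it lay loc07295 at 1.79 and loc14688 at 1.78. Just inside the day 11 limit lay loc18029 at 1.24 and loc14650 at 1.22, and just outside lay loc23499 at 1.33 and loc00221 at 1.33. By mean signal on hydroxyurea day 4, loc10623 at 134 and loc23928 at 142 were just inside, against 123 for loc09063 and 110 for loc18363. A day 4 limit of 1.6 in place of 1.8 gave 51 loci, and one of 2.0 gave 8.

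The members were simple loci in the authors' sequence set. They held 34 sequences in all, 23 of them in the normalized table, and 9 of the 17 loci had a single sequence. The median was 1 sequence per locus, against 3 over the 9802 loci with a hydroxyurea day 4 signal of at least 130. At all 17 the same sequence gave the largest share of the signal in both day 4 groups, though that share could differ between them. At the 9 loci with a single sequence this could not be otherwise. At loc09515, loc15805, loc18029 and loc23928 the leading sequence held 97.0% to 100% of the signal in both groups. Where a locus had several sequences they did not always move alike. At loc10039 the leading sequence averaged 223 in hydroxyurea day 4 libraries and 94.7 in control day 4 libraries, while its second sequence averaged 28.1 and 31.0 in the same groups, and the leading sequence held 84.8% of the locus in hydroxyurea and 74.1% in control libraries. At loc08111 the first sequence averaged 271 in hydroxyurea day 4 libraries and 119 in control day 4 libraries, and the second 132 and 93.2, so that the first held 67.2% of the locus in hydroxyurea and 56.1% in control libraries. How the authors' counting treats reads common to the sequences of a locus is not stated, which leaves the values of single sequences uncertain.

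On day 5, 9 of the 17 members were called higher in treated polyps and 8 did not pass the test. All 17 fold changes were positive, with a median log2 fold change of 0.94, against 0.01 over all 17107 loci tested. In edgeR's quasi-likelihood test with Benjamini-Hochberg adjustment over all of these loci, 9 members were higher in hydroxyurea libraries at an adjusted p under 0.05 and 0 were lower. Among all loci tested, 8.81% were called higher and 13.0% lower, and among those with a hydroxyurea day 4 signal of at least 130 the shares were 13.7% and 15.4%. Every hydroxyurea day 5 library lay above every control day 5 library at 14 members, against 21.6% of all loci of the normalized table and 27.0% of those with the higher day 4 signal.

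The day 5 difference was largest at loc07794, which had 76.2, 291 and 114 in hydroxyurea libraries A, B and C and 12.9, 27.1 and 22.0 in control libraries A, B and C. The groups did not overlap although the treated libraries differed widely among themselves, and the log2 fold change was 2.97 ± 0.51 (SE, edgeR adjusted p = 8.07e-05). The tightest difference was that of loc19739, with 647, 668 and 766 in hydroxyurea libraries, against 314, 374 and 345 in control libraries. Its log2 fold change was 1.02 ± 0.18 (edgeR adjusted p = 0.000115). At loc08915 the signal was 934, 1032 and 756 in hydroxyurea libraries and 391.7, 391 and 509.7 in control libraries, again without overlap. Its log2 fold change was 1.08 ± 0.26 (edgeR adjusted p = 0.0028). At loc23928 the treated libraries held 153, 126 and 171 and the control libraries 58.7, 64.7 and 54.9, a log2 difference of 1.35 ± 0.34 (edgeR adjusted p = 0.00443). These 4 loci were called in each of the 6 fits that left out 1 of the 6 libraries compared.

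The remaining 5 calls of day 5 lay close to the threshold and were lost without single libraries. Where they were lost, the log2 fold change was 1.00 to 1.22 at loc09515, 0.80 to 1.25 at loc18029, 1.12 to 1.38 at loc24744, 0.78 to 1.13 at loc11856 and 0.52 to 0.91 at loc22907. At loc09515 (log2 1.10 ± 0.38, edgeR adjusted p = 0.0395) and loc18029 (1.10 ± 0.40, 0.0474) the call was lost whichever of the 6 libraries was left out, with adjusted p of up to 0.131 and 0.234. At loc24744 (1.35 ± 0.48, 0.0458) it was lost without any library but control A, with adjusted p of up to 0.186. At loc11856 (1.07 ± 0.36, 0.0314) it was lost without control A, control B, hydroxyurea A or hydroxyurea C, with adjusted p of up to 0.195. At loc22907 (0.86 ± 0.31, 0.0433) it was lost without any 1 control library or without hydroxyurea B, and without hydroxyurea B the log2 fold change was 0.52 (adjusted p = 0.319). In that library loc22907 stood at 362, against 191 and 206 in hydroxyurea A and C and 151, 141 and 125 in the control libraries, so the groups did not overlap. Without the filter on low counts loc09515, loc18029, loc22907 and loc24744 missed the threshold, and with limma these 4 and loc11856 did. By contrast, 11 members passed in DESeq2 and 13 in a fit of the compared groups alone.

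Of the 8 loci that did not pass on day 5, loc14650 came closest, with a log2 fold change of 0.60 ± 0.24 (edgeR adjusted p = 0.0667), and it passed without control B (0.76, adjusted p = 0.0468) or hydroxyurea A (0.73, adjusted p = 0.0489). The smallest was loc11582, with 97.5, 154 and 170.3 in hydroxyurea libraries, against 115, 193 and 109.9 in control libraries. Its groups overlapped on day 5 and its log2 fold change was 0.01 ± 0.30, whereas its treated mean had been 1.83 times the control mean on day 4. The highest mean over the 4 hydroxyurea groups fell on day 4 at 6 members, on day 5 at 7, on day 7 at 3 and on day 11 at 1, so the day used for the choice was the day of the highest treated mean at only 6 of the 17 loci.

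**Figure D2:**
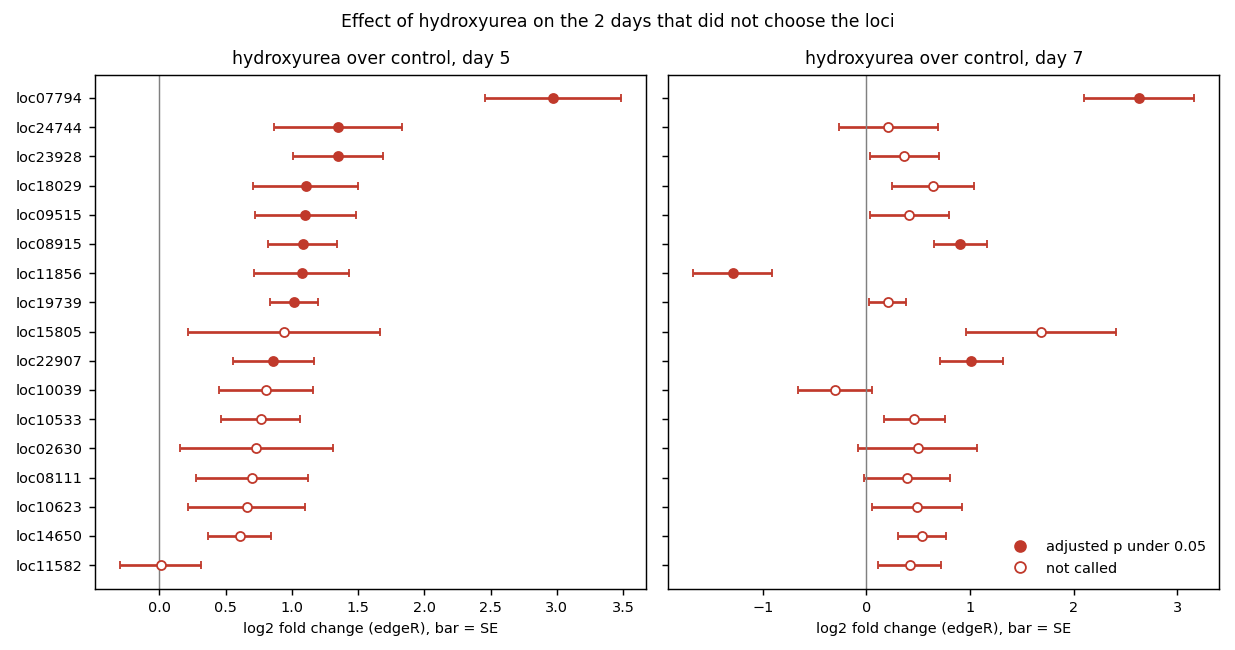
Log2 fold change of hydroxyurea over control (x axis) on days 5 and 7 for the 17 loci (y axis, ordered by day 5), from edgeR, with bars of 1 SE. Filled points passed an adjusted p under 0.05, 9 on day 5 and 4 on day 7, and loc11856 is the only filled point left of 0.

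On day 7 some members were still higher in treated polyps, while others were near the control level or below it. The median log2 fold change was 0.46, 15 of the 17 were positive, and the edgeR test called 3 members higher and 1 lower, with 13 not passing. Over all loci tested 11.4% were called higher and 14.3% lower, and among those with a hydroxyurea day 4 signal of at least 130, 16.7% and 18.0%. The members' count of calls is near these shares. Every hydroxyurea day 7 library lay above every control day 7 library at 8 members, against 23.7% of the loci of the normalized table and 28.3% of those with the higher day 4 signal.

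Still higher was loc07794, with 59.8, 104 and 61.0 in hydroxyurea day 7 libraries, against 11.7, 11.0 and 13.9 in control day 7 libraries. Its log2 fold change was 2.63 ± 0.53 (edgeR adjusted p = 0.000362), and it was called in each fit that left out a library. At loc08915 the signal was 674, 761 and 763 in hydroxyurea libraries and 313, 414 and 457 in control libraries (log2 0.91 ± 0.26, edgeR adjusted p = 0.00918), and without control day 7 A the adjusted p was 0.069. At loc22907 it was 259, 302 and 304 in hydroxyurea libraries and 142, 151 and 142 in control libraries (1.01 ± 0.30, edgeR adjusted p = 0.0135), and without control day 7 A the adjusted p was 0.0521. The groups did not overlap at any of these 3 loci. At loc15805 the treated libraries held 136, 216 and 173 and the control libraries 35.2, 65.0 and 60.8, without overlap and with a ratio of the means of 3.26. Its log2 fold change of 1.69 ± 0.73 did not pass (edgeR adjusted p = 0.0938), but did when only the compared groups were fitted (adjusted p = 0.00122). At loc14650 the value was 0.53 ± 0.23 (edgeR adjusted p = 0.1), and with the replicate letter as a block it passed at 0.55 (adjusted p = 0.0363).

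Below the control level on day 7 were loc11856 and, by its means, loc10039. The signal of loc11856 was 35.3, 17.8 and 30.0 in hydroxyurea libraries and 67.6, 76.0 and 64.0 in control libraries, so every treated library was below every control library on day 7, where on day 5 every one had been above. Its log2 fold change was −1.29 ± 0.38 (edgeR adjusted p = 0.0111), and without hydroxyurea day 7 B it was −1.07 (adjusted p = 0.0775). The signal of loc10039 was 101, 119 and 136 in hydroxyurea day 7 libraries and 158, 146 and 142 in control day 7 libraries. Its groups did not overlap on either day, with the treated libraries above on day 5 and below on day 7, but neither the day 7 value of −0.31 ± 0.36 (edgeR adjusted p = 0.626) nor the day 5 value of 0.81 ± 0.35 (0.113) passed.

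The change of the hydroxyurea effect between days 5 and 7 was tested directly, as the day 7 log2 fold change minus that of day 5. It was lower at 1 member, higher at 0, and did not pass at 16, with a median of −0.31. Over all loci tested 0.614% were called lower and 0.0234% higher, and among those with a hydroxyurea day 4 signal of at least 130, 0.877% and 0.0306%. The member was loc11856, at −2.36 ± 0.52 (edgeR adjusted p = 0.0258). The call was lost with limma (adjusted p = 0.104) and without 9 of the 12 libraries, those other than control day 5 C, control day 7 A and hydroxyurea day 5 B, with adjusted p of up to 0.13 and log2 values of −2.58 to −2.07 where it was lost. At loc10039 the change was −1.11 ± 0.50 (edgeR adjusted p = 0.682), at loc24744 −1.14 ± 0.68 (0.878) and at loc19739 −0.81 ± 0.25 (0.22). In a fit of the compared groups alone loc10039 passed at −1.15 (edgeR adjusted p = 0.023) and loc19739 at −0.85 (0.0124). With loc11856 that fit called 3 members, all lower. For most members a fall of the effect between days 5 and 7 was therefore not detectable in either fit.

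The other 331 loci that met the day 4 limits, but stayed more than 1.3 times the control on day 11, had other values on the same days. The members had a median log2 fold change of 0.94 on day 5, and these 331 loci one of 1.17. On day 7 the medians were 0.46 at the members and 1.54 at the 331 loci. The change between the days had a median of −0.31 in the members and 0.49 in the 331 loci. Of the 331, 85.2% were called higher on day 5 and 90.6% on day 7. These sets were separated by their day 11 values, so their values are set side by side as a description and the difference was not tested.

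By day 11 the hydroxyurea mean lay at 0.14 to 1.24 times the control mean, with a median of 1.04, as the rule required in its upper limit. At no member did every treated library lie above every control library, in values that the rule itself limited. The hydroxyurea mean of day 11 was below that of day 4 at 15 of the 17 loci, with a median over the members of 0.671 times the day 4 level, and at 8 of them the day 11 and day 4 libraries did not overlap. The control mean of day 11 was 0.740 to 2.64 times that of control day 4, with a median of 1.40. Over the 9802 loci with a hydroxyurea day 4 signal of at least 130, these median ratios were 0.983 in hydroxyurea and 0.977 in control libraries. The hydroxyurea and control groups of both days entered the rule. It favours a high treated level on day 4 and a low one on day 11. In controls it favours a low level on day 4 and a high one on day 11. How many of all loci lack overlap between the hydroxyurea days, or between the treated and control libraries of day 11, was not counted.

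The rule fixed that the ratio of day 11 was smaller than that of day 4, so the following values describe the loci and carry no test. On a log2 scale of group means, the lower treated level of day 11 made the larger part at 8 loci and the higher control level of day 11 at 9. Among the 8, loc11856 had only 6.59, 10.3 and 5.51 in hydroxyurea day 11 libraries, against 49.5, 32.2, 64.2 and 66.7 in control day 11 libraries A to D, and every treated library was below every control. At loc07794 the treated libraries held 18.9, 9.27 and 23.1 and the control libraries 14.7, 23.9, 14.2 and 13.1, which overlap. At loc08915 they held 449, 333 and 317 in hydroxyurea libraries and 431, 327, 309 and 332 in control libraries. The control mean of loc08915 was 0.926 times its day 4 level.

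Among the 9, the largest difference between control days was at loc10533. Its hydroxyurea libraries held 543, 456 and 374 on day 4 and 602, 703 and 435 on day 11, while its control libraries held 232, 231 and 245 on day 4 and 696, 641, 299 and 858 on day 11. The control mean was 2.64 times as high on day 11 as on day 4, and control C was lower than the other 3. The treated mean was also higher on day 11, 1.27 times that of day 4, so the day 11 level itself was not a lower treated level. In between, however, the treated mean was lower than on day 4. It was 369 on day 5 and 348 on day 7, against control means of 219 and 256. At loc18029 the treated mean on day 11 was 1.15 times that of day 4, and the control mean 1.96 times. There were 6 members with a control day 11 mean of at least 1.5 times control day 4, namely loc02630, loc10533, loc10623, loc18029, loc23928 and loc24744. Between control days 5 and 7, libraries that the rule did not use, the edgeR test called 0 of the 17 members, and 0 had an unadjusted p under 0.05. It called 0 of all loci tested, 301 had an unadjusted p under 0.05, and DESeq2 called 5 loci, 0 of them members. When only these control groups were fitted, 1155 of 15324 loci had an unadjusted p under 0.05 and 0 members were called. The lack of calls does not show that the controls were unchanged.

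**Figure D3:**
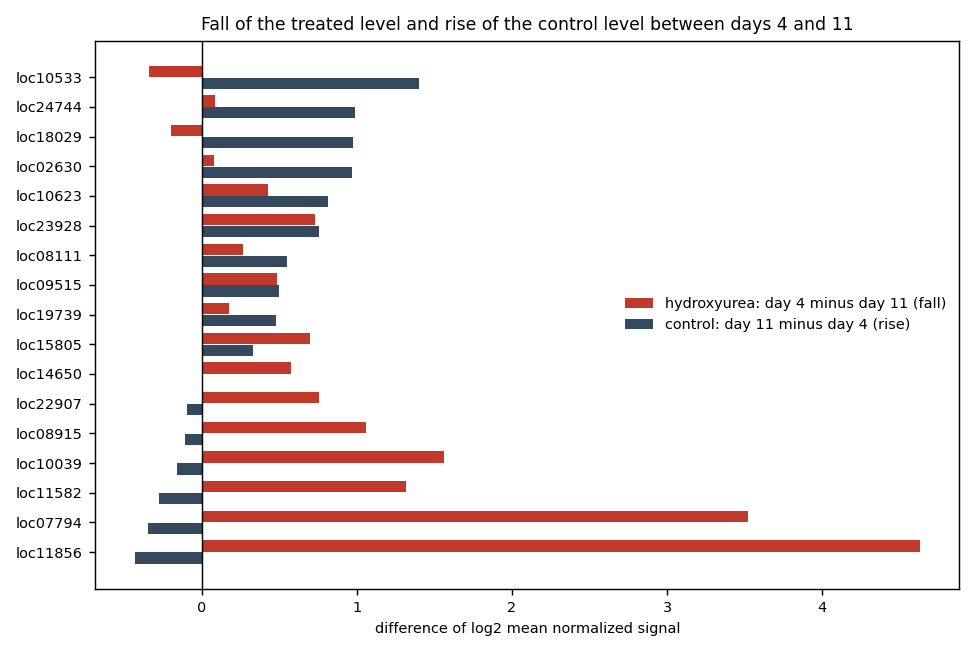
Difference of the log2 mean normalized signal (x axis) for each locus (y axis): hydroxyurea day 4 minus day 11 in red, and control day 11 minus day 4 in blue. At the top, loc10533, loc24744, loc18029 and loc02630 have long blue bars and short or negative red ones, and at the bottom loc11856 and loc07794 reach 4.63 and 3.52 in red.

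Library A was the highest of its group in all 8 hydroxyurea and control groups at 1 member, loc24744. For example, that locus had 330, 163 and 155 in hydroxyurea day 7 libraries A, B and C and 292, 126 and 151 in control day 7 libraries A, B and C. How often this holds over all loci was not counted. At loc02630 library A was the highest in 4 of the 8 groups. There control day 5 A had 602, against 276 and 268 in control B and C, within reach of the hydroxyurea day 5 values of 606, 600.5 and 689.

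Heat shock and colchicine were compared with control day 11, which shares their 11 days of starvation and also entered the rule, and the comparisons share these 4 libraries. The rule favours members with a high control day 11 level, which shifts the values of both comparisons toward lower. Their counts and medians are therefore not directly comparable with those over all loci. After heat shock the edgeR test called 1 higher and 3 lower, with 13 not passing and a median log2 fold change of 0.08, and over all loci tested 14.6% were called higher and 14.4% lower. Among loci with a hydroxyurea day 4 signal of at least 130 these shares were 21.3% and 15.6%. Every heat shock library lay below every control day 11 library at 4 members, against 20.1% of loci, and above at 0, against 14.9%. Against control days 5 and 7, which the rule did not use but which were starved for fewer days, 4 members were called higher and 3 lower. The higher ones were then loc10533 at 1.601, loc15805 at 1.82, loc18029 at 1.54 and loc19739 at 0.56 on the log2 scale, and the lower ones loc08915, loc10039 and loc11856.

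The lower calls included loc11856, with 10.8, 13.4, 4.03 and 1.71 in heat shock libraries A to D, against 49.5, 32.2, 64.2 and 66.7 in control libraries. The log2 fold change was −2.78 ± 0.38 (edgeR adjusted p = 1.35e-06). They also included loc08915, with 174, 94.7, 125 and 166 in heat shock libraries and 431, 327, 309 and 332 in control libraries (log2 −1.26 ± 0.23, edgeR adjusted p = 0.00011). Both were called in each of the 8 fits that left out a library. At loc24744 the heat shock libraries held 102, 134, 102 and 197 and the control libraries 482, 329.6, 229.6 and 234, without overlap. The log2 difference of −1.20 ± 0.42 (edgeR adjusted p = 0.0317) was lost without control A, control B, heat shock A, heat shock B or heat shock C, with adjusted p of up to 0.142. Against control days 5 and 7 it was −0.32 (adjusted p = 0.584).

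At loc10039 all heat shock libraries, at 42.3, 84.7, 45.4 and 79.7, were also below the control libraries, at 109.8, 116, 112 and 118, but the test missed its threshold (log2 −0.78 ± 0.32, edgeR adjusted p = 0.0667). It passed in edgeR with the replicate letter as a block (adjusted p = 0.0426), with the compared groups alone (0.0245) and against control days 5 and 7 (0.00522). In DESeq2 it passed too (adjusted p = 0.0228), but not with limma, with RLE size factors or without the filter on low counts.

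The higher call was loc18029, with 1113, 5499, 3700.0 and 4036 in heat shock libraries, against 1476, 2128, 2408 and 1052 in control libraries. Heat shock A lay within the control range and the other 3 above it. The log2 fold change of 1.07 ± 0.34 (edgeR adjusted p = 0.019) was lost without control A (adjusted p = 0.0728), control D (0.0767), heat shock B (0.121) or heat shock D (0.0508), and also with limma (0.0721) or when only the compared groups were fitted (0.151). Heat shock A stood apart at loc15805, with 675, against 29.0, 32.2 and 44.5 in heat shock B, C and D and 78.3, 105, 68.6 and 82.9 in control libraries. With that library the log2 fold change was 1.27 ± 0.61 (edgeR adjusted p = 0.127), and without it −1.17 ± 0.31 (adjusted p = 0.00425). Without heat shock B or C it was 1.596, with adjusted p of 0.0435 and 0.0438.

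Heat shock B stood apart at loc07794, where it held 22.3, against 5.39, 3.02 and 5.14 in heat shock A, C and D and 14.7, 23.9, 14.2 and 13.1 in control libraries. Without it loc07794 was lower, at −1.79 ± 0.51 (edgeR adjusted p = 0.00857), and so was loc10039, at −0.96 ± 0.35 (adjusted p = 0.042). Other calls appeared without a single library: loc19739 without heat shock A, at 0.46 ± 0.13 (adjusted p = 0.00647), and loc14650 without control C, at 0.57 ± 0.21 (adjusted p = 0.0452).

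After colchicine the edgeR test called 2 members higher, 5 lower, and 10 did not pass, with a median log2 fold change of −0.69. Over all loci tested 21.7% were called higher and 25.6% lower, and among those with a hydroxyurea day 4 signal of at least 130 the shares were 32.1% and 25.7%. Against control days 5 and 7, which the rule did not use but which were starved for fewer days, 5 members were called higher and 5 lower. The higher ones were then loc14650, loc22907, loc08111 at 1.19, loc10533 at 0.68 and loc19739 at 0.38 on the log2 scale, and the lower ones loc07794, loc08915, loc11856, loc10039 at −1.11 and loc11582 at −0.76. Every colchicine library lay above every control day 11 library at 2 members, against 18.4% of loci of the normalized table, and below at 5, against 24.4%.

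At loc07794 the colchicine libraries A, B and C held 0.782, 0 and 0, which is 1 count in the 3 libraries together, against 74 counts in the 4 control libraries. The ratio of these counts, scaled by the authors' normalization constants of the libraries, was 0.0288, with an exact 95% interval of 0.000719 to 0.165 that covers counting error only. The edgeR adjusted p was 0.000329. At loc11856 the colchicine libraries held 3.91, 2.12 and 5.60, against the control range of 32.2 to 66.7 (log2 −3.75 ± 0.52, edgeR adjusted p = 9.19e-07). At loc08915 they held 123, 48.8 and 143, against a control range of 309 to 431 (log2 −1.71 ± 0.28, edgeR adjusted p = 9.64e-06). These 3 loci were therefore lower after colchicine in all libraries, and loc08915 and loc11856 were also called lower after heat shock.

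The loci called higher were loc14650 and loc22907. The signal of loc14650 was 393, 430.4 and 667 in colchicine libraries, against 154, 153, 229.6 and 196 in control libraries (log2 1.44 ± 0.22, edgeR adjusted p = 4.02e-06). That of loc22907 was 387, 519 and 350.1 in colchicine libraries, against 137, 132, 154 and 137 in control libraries (log2 1.59 ± 0.28, edgeR adjusted p = 3.68e-05). Both stayed called with the shallow libraries colchicine B and C left out, at 1.12 (adjusted p = 0.00231) and 1.48 (0.00352), and so did loc07794 (0.0176), loc08915 at −1.49 (0.00162), loc10533 at −1.19 (0.0306) and loc11856 at −3.71 (0.000254). In that fit colchicine A alone stands for its group and is assumed to vary like the other groups.

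The other lower calls were those of loc24744 and loc10533. At loc24744 the colchicine libraries held 104, 127 and 2.80, against 482, 329.6, 229.6 and 234 in control libraries (log2 −1.92 ± 0.50, edgeR adjusted p = 0.00219). It was called in each of the 7 fits that left out 1 library, at −2.28 to −1.49 (adjusted p up to 0.0113). Without both colchicine B and C it was −1.597 (adjusted p = 0.0501), in a fit of the compared groups alone −1.96 (0.0747), and against control days 5 and 7 −1.05 (0.0659). At loc10533 they held 271, 343 and 555, against 696, 641, 299 and 858 in control libraries, with overlap. The log2 difference of −0.69 ± 0.28 (edgeR adjusted p = 0.0447) was lost without control A, B or D and without colchicine A or B, with adjusted p of up to 0.201, and with the replicate letter as a block it was −0.65 (adjusted p = 0.0951). It was also lost with RLE size factors, without the filter, with limma and in a fit of the compared groups alone. Against control days 5 and 7 in place of day 11 the adjusted p was 0.0292 for the value of 0.68 given above, the opposite direction, and the control means of those days were 219 and 256. Without colchicine A, loc10039 at −1.74 (edgeR adjusted p = 0.000642) and loc10623 at −1.38 (0.0288) were called lower, and without colchicine B, loc23928 at −1.04 (0.026).

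**Figure D4:**
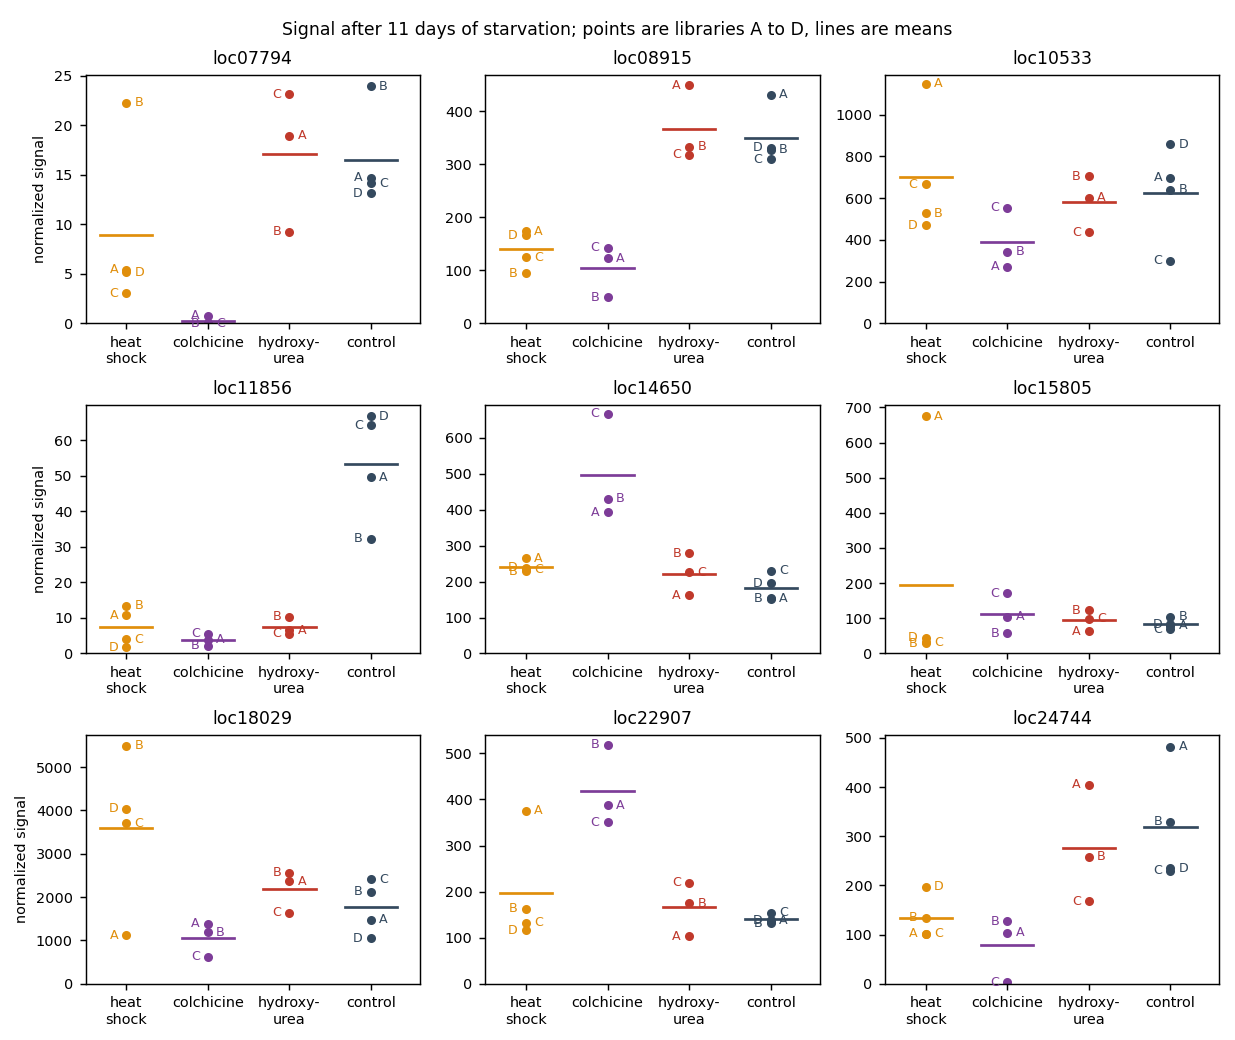
Normalized signal (y axis, linear, from 0) at 9 of the loci in heat shock day 9, colchicine day 9, hydroxyurea day 11 and control day 11 libraries, left to right, all after 11 days of starvation. Points are libraries with their letters and lines are means; heat shock A stands alone at loc15805 with 675, and at loc11856 all libraries of the 3 treatments lie below the control libraries.

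Between colchicine and heat shock, both outside the rule, the edgeR test called 2 members higher in colchicine and 4 lower, against 14.7% and 17.1% of all loci tested, and 22.4% and 19.7% of those with a hydroxyurea day 4 signal of at least 130. Higher were loc14650 at 0.99 ± 0.22 (edgeR adjusted p = 0.000862) and loc22907 at 1.05 ± 0.28 (0.00486). The colchicine libraries of loc14650, at 393 or more, lay above all heat shock libraries, which held 265, 228, 234 and 239, whereas at loc22907 heat shock A, at 376, reached the colchicine range. Lower were loc07794 (edgeR adjusted p = 0.00795), loc18029 at −1.79 ± 0.39 (0.000843), loc10533 at −0.92 ± 0.28 (0.0136) and loc11582 at −0.88 ± 0.30 (0.0257). At loc07794 the 1 count in colchicine libraries stood against 36 in heat shock libraries, a ratio of 0.0574 with an exact 95% interval of 0.00141 to 0.341 (counting error only). The call of loc10533 was lost without heat shock A (adjusted p = 0.065) or colchicine A (0.0759), and that of loc11582 without heat shock A (0.136), colchicine B (0.0597) or colchicine C (0.138). Without heat shock A, loc08111 at 1.54 (edgeR adjusted p = 0.000797) and loc15805 at 1.52 (0.000719) were called higher and loc19739 at −0.38 (0.0337) lower in colchicine. With colchicine B and C left out, only loc10533 was called, at −1.39 (adjusted p = 0.0211).

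Apart from loc24744, the members at which colchicine C was low had no call after colchicine in the main fit. The total of colchicine C was the lowest of the series. In other settings loc10039 was called lower, with DESeq2 (adjusted p = 0.0272), with limma (0.0046) and against control days 5 and 7 (edgeR, 0.00781). With limma so were loc10623 (adjusted p = 0.0183) and loc23928 (0.0324). At loc02630 colchicine A, B and C held 655, 1172 and 14.0, against 640, 790, 302 and 391 in control day 11 libraries. At loc10623 they held 100.1, 84.8 and 0, against 132, 158, 74.0 and 108 in control libraries. At loc09515 they held 246, 312 and 28.0, and at loc10039, 109, 55.1 and 8.40. Whether the depth of this library has a part in these values was not tested.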

How the data were processed

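PolyA RNA of central body columns was sequenced, per the labels, from directional libraries. Read counts deposited by the authors are whole numbers and cover 79774 sequences at 25879 loci. The authors' normalized signal for 31594 sequences at 14792 loci equals the count times 1 constant per library (0.669 to 2.80), as tested on the files. The submitters' processing notes name cutadapt 1.11, Salmon 0.7.2 and DESeq2 without their roles; the sequence set, the mapping settings and the use of strand are not given in the sources used here, and the whole numbers may be rounded estimates.

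Counts were summed per locus and tested with edgeR 4.0.16 in R 4.3.3 (quasi-likelihood F-test, robust dispersion). All 32 libraries were fitted with 1 mean per group, leaving 22 residual degrees of freedom. TMM factors were 0.757 to 1.20. The filterByExpr function with a minimum count of 10 kept 17107 loci, among them all 17 members, with 99.96% of the counts. A call is a Benjamini-Hochberg adjusted p under 0.05 over all loci tested. The SE given with an edgeR value was calculated as the absolute log2 fold change divided by the square root of the F statistic. The fit was tested on simulated data. Signals describe levels; they carry no correction for length and are compared only within a locus. Group means, SDs and ratios use the normalized signal summed per locus.

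Days are those of the labels; titles carry 3, 4, 6 and 10 in place of 4, 5, 7 and 11. Letters were checked as pairs by correlating deviations from group means. All letters exceeded 0.1 for hydroxyurea and control day 7 (0.359, 0.133 and 0.195 for A, B and C), control days 7 and 5 (0.400, 0.137 and 0.134) and colchicine and control day 11 (0.170, 0.153 and 0.256), and these were taken as paired. However, control day 7 C correlated more closely with another letter of control day 5, and colchicine A with another letter of control day 11. The main fit did not use the letters. The replicate block adds effects of the letters that are common to all groups, so it does not model pairs within a single comparison. The members and the rule for named loci were chosen with earlier results of these data known. Named loci are those highest or lowest in signal, ratio or fold change, and all that passed or lost a test. Alternatives were other size factors, no filter, DESeq2 1.42.0, limma 3.58.1 on log2(signal + 1), the compared groups alone, a replicate block, other controls, other limits of the rule and each library left out.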

Additional observations from a re-analysis of the deposited data

Results flagged for a closer look

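Groups of 4 libraries were searched for a single library far from the other 3 by Dixon's criterion at 95%. Of 34 such groups 3 met it, and chance gives about 1 in 20, or 1.7 groups. At loc15805 heat shock A had a signal of 675, against 29.0 to 44.5 in the other 3 heat shock libraries. At loc07794 heat shock B had 22.3, against 3.02 to 5.39 in the others, and control day 11 B had 23.9, against 13.1 to 14.7 in the others.

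In the main fit the effect of hydroxyurea differed between days 5 and 7 at loc11856, where the log2 fold change of day 7 minus that of day 5 was −2.36 (edgeR adjusted p = 0.0258). That call was lost without 9 of the 12 libraries (edgeR adjusted p of up to 0.13) and with limma (adjusted p = 0.104). At loc10039 every treated library was above every control library on day 5 and below it on day 7, where the ratio of means was 0.799. The test of that difference did not pass in the main fit (edgeR adjusted p = 0.682), but did when only the compared groups were fitted (adjusted p = 0.023).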

How the results depend on the processing

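Of 1783 recomputed member values 1576 kept their direction and side of the threshold, and 3 reversed. Of 453 values of called members 362 stayed called. Hydroxyurea day 5 had 9 called members, 5 without the filter on low counts, 4 with limma, 11 with DESeq2, 13 in a fit of the compared groups alone and 5 to 6 with a library left out. Day 7 had 4 called, 8 in a fit of the compared groups alone and 2 to 4 with a library left out, the lowest without control day 7 A. The change between days 5 and 7 had 1, with 3 in a fit of the compared groups alone, 0 with limma and 0 to 1 with a library left out. Heat shock had 4, with 2 by limma, 7 (4 higher, 3 lower) against control days 5 and 7, and 2 to 5 with a library left out, the lowest without control day 11 A. Colchicine against heat shock had 6, with 1 in a fit of those groups alone, whose filter removed loc07794 and loc11856, and 1 without colchicine B and C. Colchicine had 7, with 10 (5 higher, 5 lower) against control days 5 and 7. With a library left out, colchicine had 6 to 8 and colchicine against heat shock 5 to 7. The rule gave 51 members at a day 4 ratio of 1.6, 8 at 2.0 and 35 at a day 11 ratio of 1.5. Reversed values were loc15805 without heat shock A, at −1.17 for heat shock and 1.52 for colchicine against heat shock (−1.26 to 1.52 over all left-out libraries), and loc10533 after colchicine against control days 5 and 7, at 0.68. With a replicate block, 10 members were called on day 5, 5 on day 7, 1 for the change, 0 between control days, 6 after heat shock, 6 after colchicine and 6 between colchicine and heat shock. Beyond loc14650 on day 7 and loc10533 after colchicine it changed no call of a paired comparison. On day 5 the letters were not shown by these correlations to pair libraries (0.104, 0.0992 and −0.0441), nor were those of heat shock. The cause of these differences was not tested. Depth limits loc07794 most, with 1 count in 3 colchicine libraries.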
